A study of Mus musculus with 8 samples.

Results

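The genes described here are 10 genes of fibroblast growth factor (FGF) signalling, chosen by symbol from the 28460 genes of the deposited count table. They are 4 ligands (Fgf2, Fgf5, Fgf8 and Fgf9), the 4 receptor kinases (Fgfr1 to Fgfr4) and 2 feedback inhibitors of the Sprouty family (Spry2 and Spry4). RNA-seq was performed on spermatogenic cells from testes of mice of mixed background at postnatal day 12, from 4 Brg1 cKO samples, which carry a conditional knockout of Brg1, and 4 Brg1 WT samples. The design text calls the samples biological replicates. The sources used here do not state the Cre line, the deleted part of Brg1, the animals behind each sample or any allele that the Brg1 WT mice also carried. Brg1, encoded by Smarca4, is the motor subunit of SWI/SNF chromatin remodelling complexes, and the comparison asks which transcripts differ where it is lost.

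FGF ligands are secreted proteins that bind receptor tyrosine kinases together with heparan sulfate chains. Bound receptors signal through the adaptor FRS2 and the RAS-ERK cascade, which induces its own inhibitors, among them the Sprouty proteins and the phosphatase DUSP6. In the mouse testis FGF2 supports spermatogonial stem cells in culture, FGF9 acts in the fetal gonad in testis formation and against early meiosis, and in human testis FGFR3 marks primitive spermatogonia.

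Library totals ran from 20456743 estimated counts (Brg1 cKO replicate 4) to 32596038 (Brg1 WT replicate 3), so that 1 count stood for 0.0306 to 0.0495 CPM, the unit of levels below, which scales each count to its library's TMM-adjusted total. Smarca4 was 2.87-fold lower in Brg1 cKO, with 111 to 129 CPM in Brg1 cKO and 338 to 357 CPM in Brg1 WT libraries (log2 difference -1.52 ± 0.06, SE; edgeR adjusted p = 6.8e-06). All 16 genes of a pan-germ cell marker list were detected, at a summed 2092 to 2710 CPM in Brg1 cKO and 2739 to 3630 CPM in Brg1 WT. The cells were freed by enzyme digestion and sieved, and Sertoli cell markers (21 genes) summed to 8063 to 10710 CPM in Brg1 cKO and 6528 to 8033 CPM in Brg1 WT. The levels are those of a mixture, in which fewer cells of a type and less RNA per cell cannot be told apart. Of 16059 genes tested with edgeR's quasi-likelihood test, 3312 (20.6%) passed a threshold of 0.05 on the p adjusted by Benjamini and Hochberg's method. In Brg1 cKO 1412 of them (8.79%) were higher and 1900 (11.8%) were lower. That split was 72 higher and 8513 lower if Sertoli cell markers were set to a median of no change, and 8868 higher and 539 lower if pan-germ cell markers were. Brg1 WT replicates 1 and 2 stood apart in the sum of 10 transcripts of pachytene cells and spermatids, carried by Piwil1, Ldhc, Adam2 and Spag6 (others, such as Tnp1 and Tnp2, did not set them apart), which was 7.37 to 9.73 CPM in Brg1 cKO and 27.5, 28.9, 11.7 and 9.69 CPM in Brg1 WT replicates 1 to 4. Without that pair 438 genes were called.

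Of the 10 genes, Fgfr3 fell and Spry4 rose in Brg1 cKO, 7 did not pass the test and Fgf5 was too low to be tested. The 2 called genes make up 22.2% of the 9 tested, against 20.6% of all genes, so the share called was near the background. Fgfr3 and Spry4 were also the 2 whose libraries did not overlap between genotypes, as 26% of all tested genes did not. The median log2 fold change of the 9 was 0.23, against 0.01 over all genes tested. All adjusted p values below come from the same edgeR fit over all genes, except where an alternative is named.

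**Figure D1:**
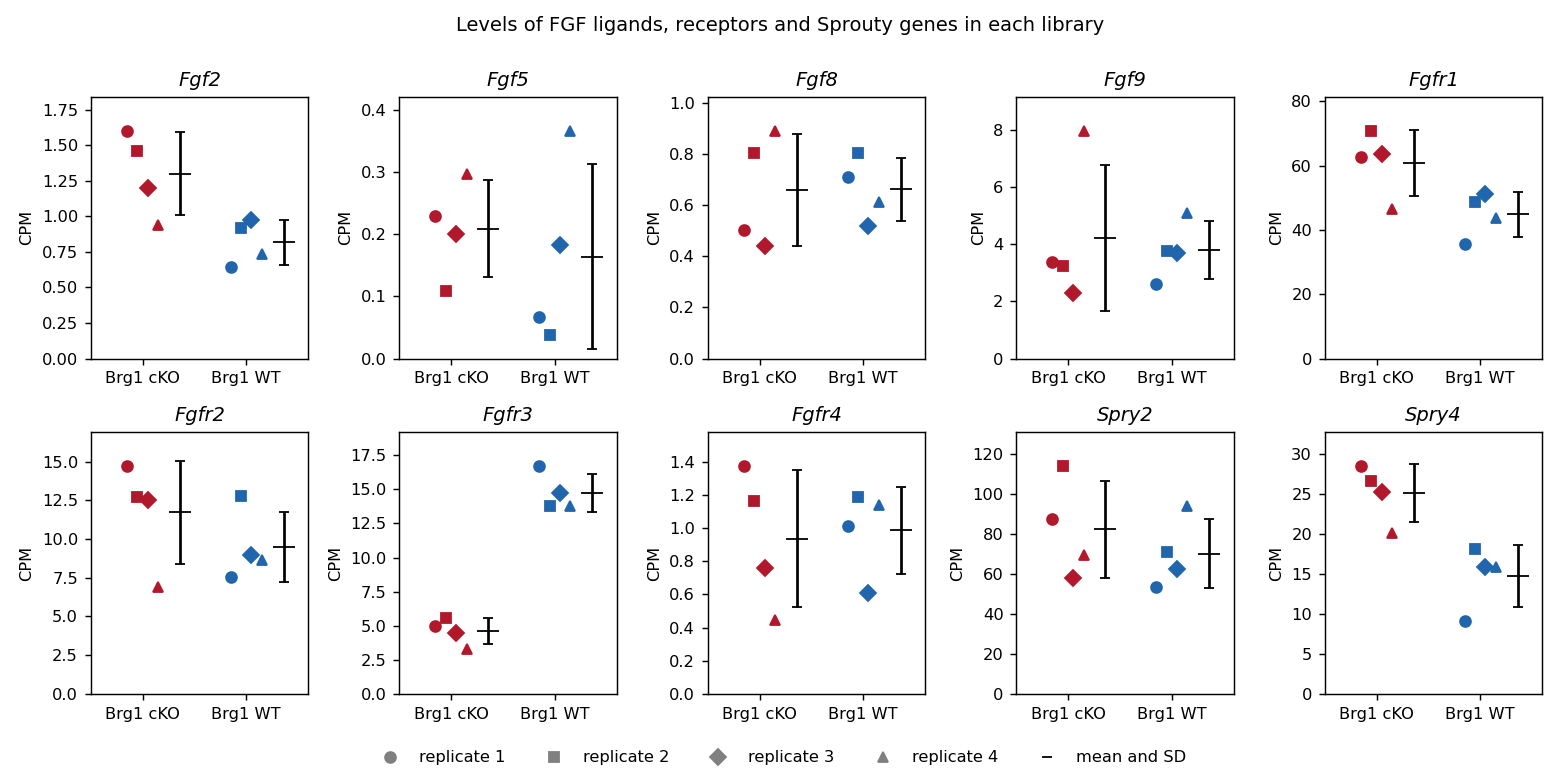
Level of each of the 10 FGF genes in CPM (vertical axes, linear, starting at 0) in the 4 Brg1 cKO (red) and 4 Brg1 WT (blue) libraries, with the mean and SD in black beside each group. Fgfr3 lies at 3.32 to 5.54 CPM in Brg1 cKO, below all Brg1 WT libraries, and Spry4 at 20.1 to 28.4 CPM, above all of them.

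Fgfr3, a receptor that in bone restrains growth of cartilage, had the largest difference of the 9 tested genes. It had 4.99, 5.54, 4.49 and 3.32 CPM in Brg1 cKO replicates 1 to 4, against 16.7, 13.8, 14.8 and 13.8 CPM in Brg1 WT replicates 1 to 4. The highest Brg1 cKO library was lower than the lowest Brg1 WT library by more than the range of either genotype. The means were 4.58 ± 0.95 CPM in Brg1 cKO and 14.8 ± 1.39 CPM in Brg1 WT (SD, n = 4 each), or 3.21-fold lower in Brg1 cKO. On the log2 scale the difference was -1.68 ± 0.16 (SE; edgeR adjusted p = 7.4e-04). The call held under each of the 19 alternatives tried, with log2 fold changes from -2.06 to -1.31 and adjusted p from 2.3e-20 to 0.020. Without Brg1 WT replicates 1 and 2 it was -1.63 (adjusted p = 0.020). In GENCODE M21 the gene G630022F23Rik overlaps Fgfr3 exons on the opposite strand, and the sources used here do not state whether strand was used in the quantification.

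RefSeq lists a pair of start sites for Fgfr3 on the plus strand of chromosome 5 in GRCm38.p6, and the 300 bases around each (250 before, 50 after) are shown because Fgfr3 carries the strongest difference. The window of Fgfr2, a receptor that was not called, is shown beside them. Capitals mark the GC box GGGCGG or its reverse complement CCGCCC.
Fgfr3 start 1, chr5:33721474-33721773: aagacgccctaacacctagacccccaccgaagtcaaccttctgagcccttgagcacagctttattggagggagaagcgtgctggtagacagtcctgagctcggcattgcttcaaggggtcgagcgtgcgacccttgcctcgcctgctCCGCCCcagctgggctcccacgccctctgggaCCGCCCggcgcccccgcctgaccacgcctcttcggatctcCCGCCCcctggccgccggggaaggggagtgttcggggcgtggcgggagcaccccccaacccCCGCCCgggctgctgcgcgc
Fgfr3 start 2, chr5:33722056-33722355: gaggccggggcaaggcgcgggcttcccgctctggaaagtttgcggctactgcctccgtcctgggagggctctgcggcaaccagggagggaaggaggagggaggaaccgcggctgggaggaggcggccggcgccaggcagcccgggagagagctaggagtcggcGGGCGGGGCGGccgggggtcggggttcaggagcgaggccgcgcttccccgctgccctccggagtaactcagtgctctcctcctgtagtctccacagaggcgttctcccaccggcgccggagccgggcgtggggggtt
Fgfr2, chr7:130266759-130267058, minus strand: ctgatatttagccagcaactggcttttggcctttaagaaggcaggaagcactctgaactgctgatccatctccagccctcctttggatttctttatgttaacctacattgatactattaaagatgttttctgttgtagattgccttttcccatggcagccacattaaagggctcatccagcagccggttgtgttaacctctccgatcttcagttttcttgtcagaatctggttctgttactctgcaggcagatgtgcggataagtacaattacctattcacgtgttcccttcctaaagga
The Fgfr3 windows held 4 and 2 GC boxes, with the 2 of start 2 sharing 1 base, at 69.7% and 73.0% G and C and with 26 and 30 CG dinucleotides. The Fgfr2 window held no GC box, at 43.7% G and C with 4 CG dinucleotides. Over 32851 RefSeq windows of this length, 35.7% held a GC box on either strand, and the median was 52.7% G and C with 7 CG dinucleotides. Among the 7 of the 10 genes with a window, Fgfr4 held 4 GC boxes, Fgf2 and Fgf5 held 1 each and Fgf9 and Spry2 held none. The windows of Fgfr4 and Spry2, both uncalled, had 65.3% and 62.7% G and C with 20 and 28 CG dinucleotides. A GC-rich window was thus not particular to Fgfr3. A match describes these letters alone. TATAAA, searched on both strands and held by 13.6% of windows, was found in the Fgf5 window alone of these genes.

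Fgfr3 was also set beside germ cell markers in the same libraries. A list of 20 genes of undifferentiated spermatogonia summed to 684 to 815 CPM in Brg1 cKO and 744 to 896 CPM in Brg1 WT. Of its members 10 were lower, 3 higher and 7 uncalled (65% called, against 20.6% of all genes), with a median log2 fold change of -0.58. The most abundant of them, Itga6, rose, at 248 ± 2.80 CPM in Brg1 cKO and 183 ± 5.34 CPM in Brg1 WT (SD, n = 4 each; edgeR adjusted p = 0.0014), so the sum understates how far other members fell. Some members fell as far as Fgfr3, with log2 fold changes of -2.08 for Upp1, -1.79 for Eomes and -1.78 for Nanos3, named after their values were seen. The 3 that rose were Itga6, Nanos2 (0.94, edgeR adjusted p = 0.040) and Bcl6b (0.63, edgeR adjusted p = 0.045), also named after their values were seen. Per 1000 CPM of that list, Fgfr3 had 4.57 to 7.30 CPM in Brg1 cKO and 15.4 to 22.5 CPM in Brg1 WT. Per 1000 CPM of the pan-germ cell list, it had 1.27 to 2.37 CPM in Brg1 cKO and 4.42 to 5.39 CPM in Brg1 WT. A list of 8 genes of differentiating spermatogonia summed to 683 to 830 CPM in Brg1 cKO and 1003 to 1092 CPM in Brg1 WT. Of these, 5 were lower, 1 higher and 2 uncalled (75% called, against 20.6% of all genes). Fgfr3 did not overlap between genotypes on either ratio. The first ratio divides by a sum in which Itga6, which rose, weighs most, so it does not account for the members that fell. The part of the germ cell mixture in the fall of Fgfr3 was not tested.

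The other 3 receptors did not pass the test. Fgfr1, the most abundant receptor, had 62.7, 70.9, 63.5 and 46.6 CPM in Brg1 cKO replicates 1 to 4, against 35.6, 48.9, 51.2 and 43.7 CPM in Brg1 WT replicates 1 to 4. Brg1 cKO replicates 1 to 3 lay above all Brg1 WT libraries and replicate 4 lay among them. It differed by 0.44 ± 0.15 on the log2 scale (SE; adjusted p = 0.058), with a 95% interval of 0.09 to 0.80. Fgfr1 passed the threshold with DESeq2 (adjusted p = 0.018) and without Brg1 cKO replicate 4 (0.55, adjusted p = 0.020), and its adjusted p ran from 0.0013 to 0.749 over the alternatives.

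Fgfr2, the receptor of FGF9 signalling in the fetal testis, had 14.7, 12.7, 12.5 and 6.93 CPM in Brg1 cKO replicates 1 to 4, against 7.56, 12.8, 8.98 and 8.63 CPM in Brg1 WT replicates 1 to 4. The genotypes overlapped, with the lowest of all 8 libraries being Brg1 cKO replicate 4. Its log2 fold change was 0.31 with a 95% interval of -0.28 to 0.89 (adjusted p = 0.378), and it was -0.07 relative to the Sertoli cell median but 0.68 (adjusted p = 0.0327) relative to the pan-germ cell median. Exons of Ctbp2 overlap Fgfr2 on the same strand in GENCODE M21, and reads they share may be split between them. Ctbp2 had 588 to 860 estimated counts in Brg1 cKO and 546 to 817 in Brg1 WT. Its log2 fold change was 0.35 (edgeR adjusted p = 0.04986), and the part of shared reads in the level of Fgfr2 was not tested. Fgfr4 was rare, at 0.45 to 1.37 CPM (9 to 32 counts) in Brg1 cKO and 0.61 to 1.19 CPM (20 to 31 counts) in Brg1 WT. Its log2 fold change of -0.06 had a 95% interval of -0.95 to 0.82, which holds changes in either direction, with at most 32 counts in a library.

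Because shares within a library do not depend on library scaling, the receptors were also compared as shares of their summed CPM per kb of the longest coding transcript. Fgfr3 made up 6.74%, 6.99%, 6.30% and 6.64% of receptor transcripts in Brg1 cKO replicates 1 to 4, against 30.2%, 19.9%, 21.9% and 22.7% in Brg1 WT replicates 1 to 4. The highest Brg1 cKO share lay below the lowest Brg1 WT share. Fgfr1 made up 71.3% to 78.6% in Brg1 cKO and 54.1% to 63.9% in Brg1 WT, and Fgfr2 made up 13.7% to 19.6% in Brg1 cKO and 13.1% to 18.2% in Brg1 WT. The level of Fgfr1 per kb was 10.6 to 11.9 times that of Fgfr3 in Brg1 cKO and 1.79 to 2.99 times in Brg1 WT. With the median coding transcript length in place of the longest, these ratios were 8.72 to 9.82 in Brg1 cKO and 1.48 to 2.46 in Brg1 WT. These shares restate the levels above and were not tested separately.

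**Figure D2:**
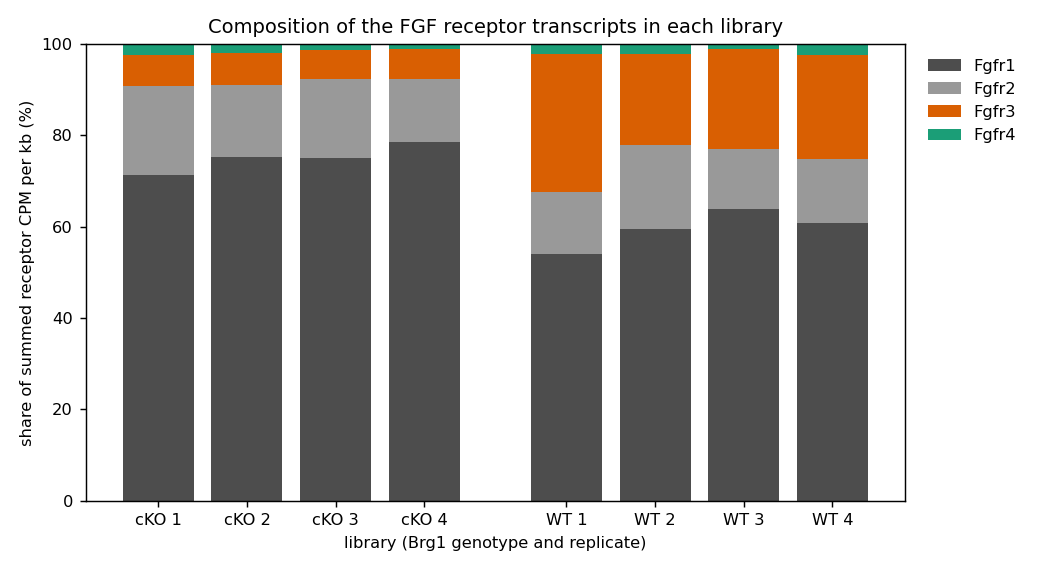
Share of each receptor in the summed CPM per kb of Fgfr1 to Fgfr4 (vertical axis, percent) in each Brg1 cKO and Brg1 WT library. The Fgfr3 band spans 6.30% to 6.99% in Brg1 cKO and 19.9% to 30.2% in Brg1 WT, while Fgfr4 reaches at most 2.41% in any library.

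Among the feedback genes, Spry4, an inhibitor of RAS-ERK signalling, had 28.4, 26.6, 25.2 and 20.1 CPM in Brg1 cKO replicates 1 to 4, against 9.14, 18.1, 15.8 and 15.8 CPM in Brg1 WT replicates 1 to 4. The genotypes did not overlap, though Brg1 cKO replicate 4 and Brg1 WT replicate 2 lay close together. Means were 25.1 ± 3.59 CPM in Brg1 cKO and 14.7 ± 3.87 CPM in Brg1 WT (SD, n = 4 each), or 1.71-fold higher in Brg1 cKO. On the log2 scale that is 0.77 ± 0.20 (SE; edgeR adjusted p = 0.026). The sign was the same under all 19 alternatives, but the call was lost in 6 of them, among these without Brg1 cKO replicate 1, 2 or 3 (adjusted p = 0.0755, 0.051 and 0.0607), without Brg1 WT replicates 1 and 2 together (0.0612) and relative to the Sertoli cell median (0.127). Over all alternatives the adjusted p ran from 0.00113 to 0.127.

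Spry2, a further Sprouty inhibitor and the most abundant of the 10 genes per kb, had 87.4, 114, 58.2 and 69.7 CPM in Brg1 cKO replicates 1 to 4, against 53.7, 71.0, 62.4 and 94.0 CPM in Brg1 WT replicates 1 to 4. The ranges overlapped over most of their length. The log2 fold change was 0.23 with a 95% interval of -0.34 to 0.80 (adjusted p = 0.508), and it turned to -0.15 relative to the Sertoli cell median. Whether Spry2 and Spry4 differed in their response was not tested.

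**Figure D3:**
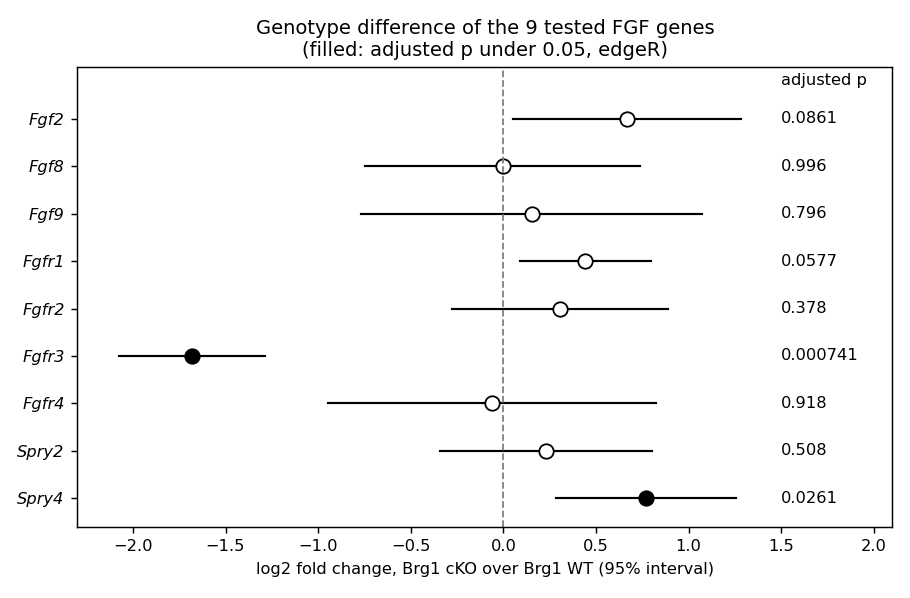
Log2 fold change of Brg1 cKO over Brg1 WT (horizontal axis) with its 95% interval for the 9 tested genes, filled where the adjusted p was under 0.05 and with that p at the right. Fgfr3 at -1.68 and Spry4 at 0.77 are filled, and the intervals of Fgf8, Fgf9, Fgfr2, Fgfr4 and Spry2 span 0.

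Levels of Fgfr1, Fgfr2 and Spry4 were set beside somatic markers in each library. A list of 16 peritubular myoid and stromal genes summed to 3891, 3840, 3812 and 2365 CPM in Brg1 cKO replicates 1 to 4, against 1679, 2856, 2671 and 2601 CPM in Brg1 WT replicates 1 to 4, with 3 members higher, 1 lower and 12 uncalled (25% called, against 20.6% of all genes). Fgfr1 and Fgfr2 were lowest in Brg1 cKO replicate 4 and in Brg1 WT replicate 1 within their genotypes, as was this list. The endothelial list (182 and 169 CPM there) and the macrophage list (40.5 and 45.5 CPM) were lowest in the same libraries. These lows were thus not particular to stromal markers. Spry4 shared that order at the low end, but in Brg1 cKO replicate 4 it stood above every Brg1 WT library while the stromal sum lay below 3 of them. Per 1000 CPM of the stromal list, Spry4 had 6.62 to 8.49 CPM in Brg1 cKO and 5.45 to 6.34 CPM in Brg1 WT, without overlap. Fgfr1 had 16.1 to 19.7 CPM in Brg1 cKO and 16.8 to 21.2 CPM in Brg1 WT per 1000 CPM of that list, with overlap.

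The Sertoli cell list had 10 members higher, 1 lower and 10 uncalled (52.4% called, against 20.6% of all genes). Its sum did not follow that order in Brg1 cKO but shared its low end in Brg1 WT. It was 9865, 8063, 10710 and 9935 CPM in Brg1 cKO replicates 1 to 4, lowest in replicate 2, where Fgfr1 was highest. In Brg1 WT replicates 1 to 4 it was 6528, 6666, 7149 and 8033 CPM, lowest in replicate 1, where Fgfr1 was lowest too. Per 1000 CPM of that list, Spry4 had 2.02 to 3.30 CPM in Brg1 cKO and 1.40 to 2.71 CPM in Brg1 WT, and Fgfr1 had 4.69 to 8.79 CPM in Brg1 cKO and 5.44 to 7.33 CPM in Brg1 WT. Both overlapped between genotypes. Leydig cell markers (11 genes, 2 higher, 18.2% called against 20.6% of all genes) summed to 68.5 to 118 CPM in Brg1 cKO and 63.4 to 75.9 CPM in Brg1 WT. Endothelial (9 genes) and macrophage markers (10 genes) had no called member, where 20.6% of all genes were called. Endothelial markers summed to 182 to 434 CPM in Brg1 cKO and 169 to 268 CPM in Brg1 WT. Macrophage markers summed to 40.5 to 81.8 CPM in Brg1 cKO and 45.5 to 64.9 CPM in Brg1 WT. No marker of these lists was at 0 in all libraries, and the part of somatic cells in the levels of Spry4, Fgfr1 and Fgfr2 was not tested.

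**Figure D4:**
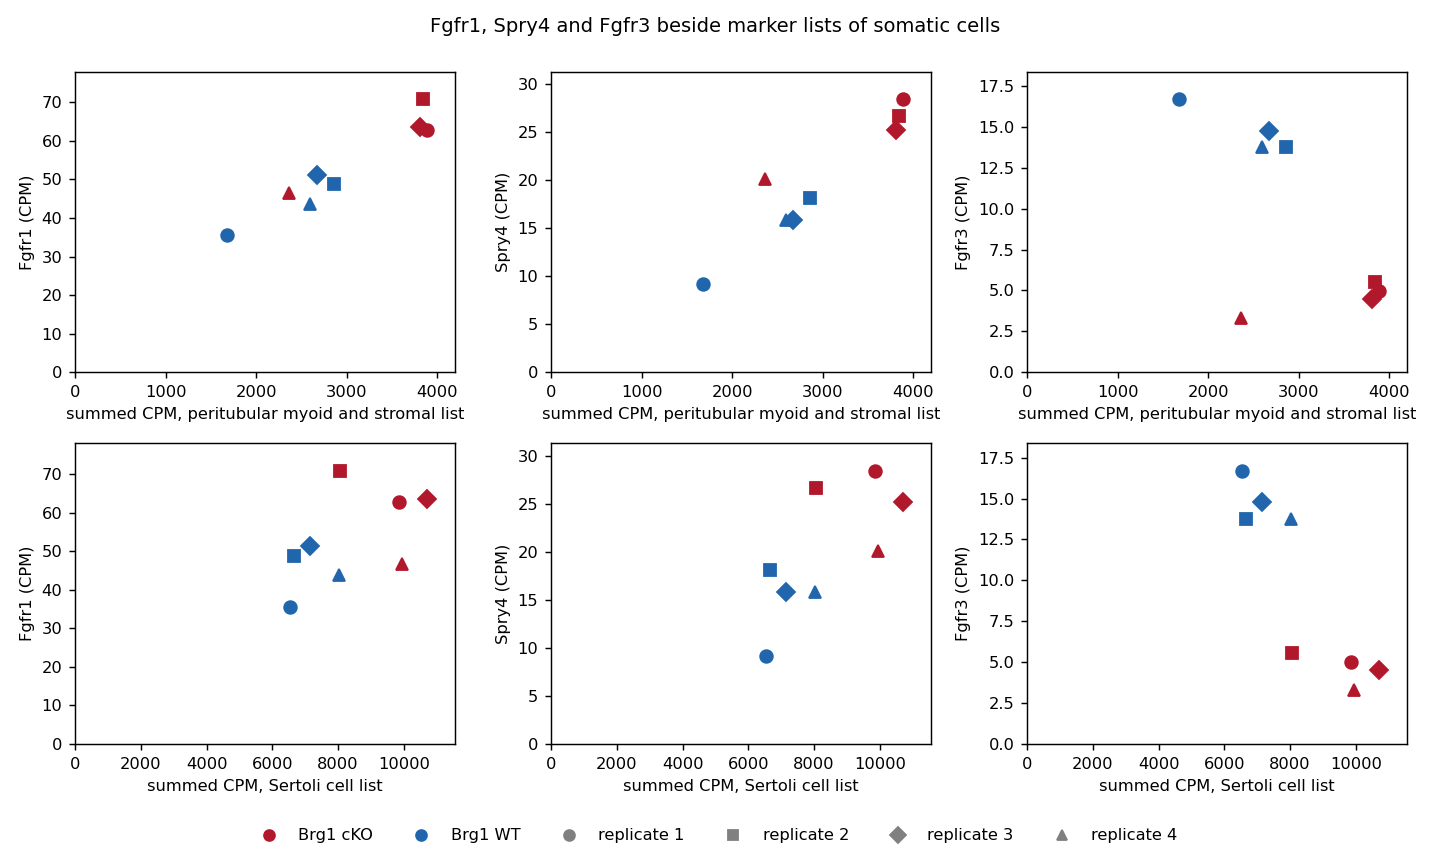
Levels of Fgfr1, Spry4 and Fgfr3 in CPM (vertical axes) against the summed CPM of the peritubular myoid and stromal list (top) and the Sertoli cell list (bottom) in each Brg1 cKO (red) and Brg1 WT (blue) library. Brg1 cKO replicate 4, at a stromal sum of 2365 CPM, lies among Brg1 WT libraries for Fgfr1 and well below them for Fgfr3. For Spry4 it lies above them, at 20.1 CPM, but close to Brg1 WT replicate 2 at 18.1 CPM.

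The 4 ligands were low and none was called. Fgf9 had 3.39, 3.24, 2.29 and 7.97 CPM in Brg1 cKO replicates 1 to 4, against 2.60, 3.76, 3.70 and 5.09 CPM in Brg1 WT replicates 1 to 4. Both the lowest and the highest of the 8 libraries were Brg1 cKO, and replicate 4 was above all others. The log2 fold change was 0.15 with a 95% interval of -0.77 to 1.07 (adjusted p = 0.796), and without Brg1 cKO replicate 4 it was -0.35 (adjusted p = 0.358, in a range of 0.249 to 0.993 over the alternatives).

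Fgf2 had 1.602, 1.458, 1.203 and 0.940 CPM in Brg1 cKO replicates 1 to 4, against 0.64, 0.92, 0.98 and 0.73 CPM in Brg1 WT replicates 1 to 4. Brg1 cKO replicates 1 to 3 lay above all Brg1 WT libraries and replicate 4 below the highest of them. The log2 fold change of 0.67 ± 0.25 (SE) had an interval of 0.05 to 1.28 and an unadjusted p = 0.025, but did not pass after adjustment (adjusted p = 0.086). Fgf2 shares exon sequence with Nudt6 on the opposite strand, which had 101 to 161 estimated counts in Brg1 cKO and 181 to 244 in Brg1 WT, while Fgf2 had 19 to 40 in Brg1 cKO and 18 to 32 in Brg1 WT, so reads of the pair cannot be told apart where strand is not used.

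Fgf8, a ligand of early development, had 0.50, 0.80, 0.44 and 0.89 CPM in Brg1 cKO replicates 1 to 4, against 0.71, 0.81, 0.52 and 0.61 CPM in Brg1 WT replicates 1 to 4. The Brg1 WT values lay inside the Brg1 cKO range. With 11 to 22 counts per library the 95% interval ran from -0.75 to 0.74 on the log2 scale. Fgf5, a ligand known for its part in the hair cycle, had 5, 3, 5 and 6 counts in Brg1 cKO replicates 1 to 4 and 2, 1, 6 and 9 in Brg1 WT replicates 1 to 4. It did not pass the filter on low counts, and no fold is given, since 3 counts stand for 0.092 to 0.148 CPM in these libraries.

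Per kb of the longest coding transcript, the order of levels from high to low in Brg1 cKO was Spry2, Fgfr1, Spry4, Fgfr2, Fgf9, Fgfr3, Fgf8, Fgfr4, Fgf2 and Fgf5. In Brg1 WT it was Spry2, Fgfr1, Fgfr3, Spry4, Fgfr2, Fgf9, Fgf8, Fgfr4, Fgf2 and Fgf5. Fgfr3 held place 6 in Brg1 cKO, at 0.78 to 1.31 CPM per kb, and place 3 in Brg1 WT, at 3.24 to 3.93 CPM per kb. In Brg1 cKO its library values overlapped those of Fgf9 (0.64 to 2.22 CPM per kb), and in Brg1 WT those of Spry4 (1.92 to 3.81 CPM per kb). Spry2 at 27.9 to 54.6 CPM per kb in Brg1 cKO and 25.7 to 45.1 in Brg1 WT, and Fgfr1 at 9.23 to 14.1 CPM per kb in Brg1 cKO and 7.05 to 10.2 in Brg1 WT, did not overlap any other of the 10 genes. Among the other neighbours in this order, library values overlapped in Brg1 cKO between Fgfr2 and Fgf9, Fgf8 and Fgfr4, and Fgfr4 and Fgf2, and in Brg1 WT between Spry4 and Fgfr2 and between Fgf2 and Fgf5. With the median coding transcript length Fgf2 moved up to place 6 in Brg1 cKO and 7 in Brg1 WT (its longest coding transcript has 5973 bases and the median 535 bases), and Fgfr2 stood above Spry4 in Brg1 WT.

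The genes whose pattern over the 8 libraries was most like that of each gene were found by the root mean square difference of centred log2 CPM, among 10267 genes. For Fgfr3 they were Scube3 (difference 0.16, log2 fold change -1.85) and Ctnnd2 (0.19, -1.54), and for Spry4 they were the integrin gene Itga9 (0.061, 0.76) and the laminin gene Lama2 (0.087, 0.71). Loxl3 (0.050) and the imprinted gene Peg3 (0.068) were nearest to Fgfr1, and Pmp22 (0.056) and Tmem204 (0.095) to Fgf2. The nearest genes of Fgf8 (0.16), Fgf9 (0.20), Fgfr2 (0.12), Fgfr4 (0.29) and Spry2 (0.10) were less close than those of Fgf2, Fgfr1 and Spry4. Each is the nearest of 10267 genes over only 8 libraries, and how close a nearest gene would be by chance was not tested. Fgf2 had 18 to 40 counts in a library, so counting error limits what its small differences mean.

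A wider set of 84 FGF pathway genes, in 4 lists, held 73 tested genes, of which 12 rose, 5 fell and 56 were not called, where 20.6% of all genes were called. That split depended on the scaling, with 0 higher and 25 lower relative to the Sertoli cell median and 56 higher and 2 lower with pan-germ cell markers as no change. Of the 17 calls, that of Gpc2 alone held under all 19 alternatives. Beyond the 4 genes that lead each list by adjusted p, Ext1, Sdc1, Sos1, Araf and Map2k2 are named so that every call is given, and were chosen after their values were seen. When Brg1 WT replicates 1 and 2 were left out together, only Gpc2 and Flrt2 of these 73 were called (adjusted p = 0.033 and 0.048).

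Of 18 other FGF ligand genes 10 were tested, of which Fgf18 rose, Fgf11 fell and 8 were not called, 20% against 20.6% of all genes. Fgf11 belongs to the intracellular FGF homologous factors, which are not secreted and act on sodium channels. It had 8.65, 8.09, 10.5 and 13.2 CPM in Brg1 cKO replicates 1 to 4, against 18.4, 18.1, 20.6 and 17.3 CPM in Brg1 WT replicates 1 to 4, or -0.88 ± 0.16 on the log2 scale (SE; adjusted p = 0.0069). Fgf18, a secreted ligand of FGFR3 in cartilage, had 2.47, 2.73, 2.33 and 3.07 CPM in Brg1 cKO replicates 1 to 4, against 1.45, 1.46, 1.31 and 1.87 CPM in Brg1 WT replicates 1 to 4, or 0.80 ± 0.19 on the log2 scale (SE; adjusted p = 0.019). Neither gene overlapped between genotypes. The Fgf18 call was lost without Brg1 WT replicate 2 or 3 (adjusted p = 0.0535 in each), without Brg1 WT replicates 1 and 2 together (0.145) and relative to the Sertoli cell median (0.0882), and the Fgf11 call without Brg1 WT replicates 1 and 2 together (0.0589). Fgf13, a homologous factor like Fgf11 and the most abundant of these genes per kb, was not called at 27.9 ± 5.88 CPM in Brg1 cKO and 22.9 ± 4.30 CPM in Brg1 WT (SD, n = 4 each; adjusted p = 0.253). Fgf1, Fgf7, Fgf10, Fgf12, Fgf14, Fgf17 and Fgf22 were not called and averaged 0.281 to 0.987 CPM in Brg1 cKO and 0.4201 to 1.311 CPM in Brg1 WT. Fgf3 was not tested, with 2, 1, 0 and 3 counts in Brg1 cKO replicates 1 to 4 and 7, 9, 8 and 6 in Brg1 WT replicates 1 to 4. It was named after its values were seen, and at these counts no fold is given.

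Of 25 tested co-receptor and heparan sulfate genes 4 rose, 2 fell and 19 were not called (24% called, against 20.6% of all genes), with a median log2 fold change of 0.32. Gpc2, a glypican, had 17.6 to 20.5 CPM in Brg1 cKO and 28.7 to 39.8 CPM in Brg1 WT, or -0.76 ± 0.11 on the log2 scale (SE; adjusted p = 0.0039). Sdc1, a syndecan, was 1.32-fold lower, but its call was lost in 10 of 19 alternatives (adjusted p up to 0.868), among them 7 of the 8 fits without a single library. Flrt2, a membrane protein that can bind FGF receptors, had 20.04 to 29.11 CPM in Brg1 cKO and 14.4 to 18.0 CPM in Brg1 WT, or 0.68 ± 0.13 on the log2 scale (SE; adjusted p = 0.010). Ndst1 and Hs6st1, which sulfate heparan sulfate, were 1.28-fold and 1.24-fold higher, a direction that turned relative to the Sertoli cell median (-0.03 and -0.07 on the log2 scale). With the sign unchanged, the Hs6st1 call was lost in 5 of 19 alternatives and the Ndst1 call in 1. Ext1, which builds the chain, was 1.31-fold higher, but its call was lost in 9 of 19 alternatives (adjusted p up to 0.978), 6 of them fits without a single library. Fgfbp1 was at 0 in every library.

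Of 21 adaptor and ERK cascade genes 5 rose, 2 fell and 14 were not called (33.3% called, against 20.6% of all genes), with a median of 0.09. Changes were small: Gab1, Sos1, Sos2, Ptpn11 and Araf were 1.22-fold to 1.32-fold higher, and all but Gab1 turned negative relative to the Sertoli cell median. Frs3, an FGF receptor adaptor, was 1.47-fold lower, with 6.49 to 9.02 CPM in Brg1 cKO and 10.9 to 13.0 CPM in Brg1 WT. The ERK kinase gene Map2k2 was 1.17-fold lower, and 0.16 higher on the log2 scale relative to the pan-germ cell median. With the sign unchanged, calls were lost in 8 of 19 alternatives for Map2k2, 6 for Araf, 5 for Sos1 and 3 for Frs3. They were lost in 2 for Gab1 and in 1 each for Sos2 and Ptpn11. Frs2, the main FGF receptor adaptor, was not called at 99.3 ± 11.3 CPM in Brg1 cKO and 92.3 ± 5.21 CPM in Brg1 WT (SD, n = 4 each; adjusted p = 0.390), and was named after its values were seen.

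Of 17 other feedback and target genes Dusp6 and Fos rose and 15 were not called, 11.8% against 20.6% of all genes. Dusp6, the ERK phosphatase, had 207, 170, 193 and 214 CPM in Brg1 cKO replicates 1 to 4, against 112, 122, 143 and 148 CPM in Brg1 WT replicates 1 to 4, or 0.58 ± 0.10 on the log2 scale (SE; adjusted p = 0.0076). Fos, an immediate early gene, had 962 to 1234 CPM in Brg1 cKO and 484 to 795 CPM in Brg1 WT, or 0.64 ± 0.15 on the log2 scale (SE; adjusted p = 0.020). Neither overlapped between genotypes, and neither was called relative to the Sertoli cell median (adjusted p = 0.141 and 0.184) or without Brg1 WT replicates 1 and 2 together (0.0692 and 0.0865). The Fos call was lost in 5 of 19 alternatives, also without Brg1 cKO replicate 1 (0.0599) or Brg1 WT replicate 2 (0.0532). The median log2 fold change of the 17 genes was 0.45, the highest of the 4 lists. Somatic marker lists had like medians: 0.657 for Leydig cell, 0.491 for stromal, 0.459 for macrophage, 0.385 for endothelial and 0.38 for Sertoli cell markers. The germ cell lists all had negative medians. The part of somatic cells in the levels of these 17 genes was not tested.

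**Figure D5:**
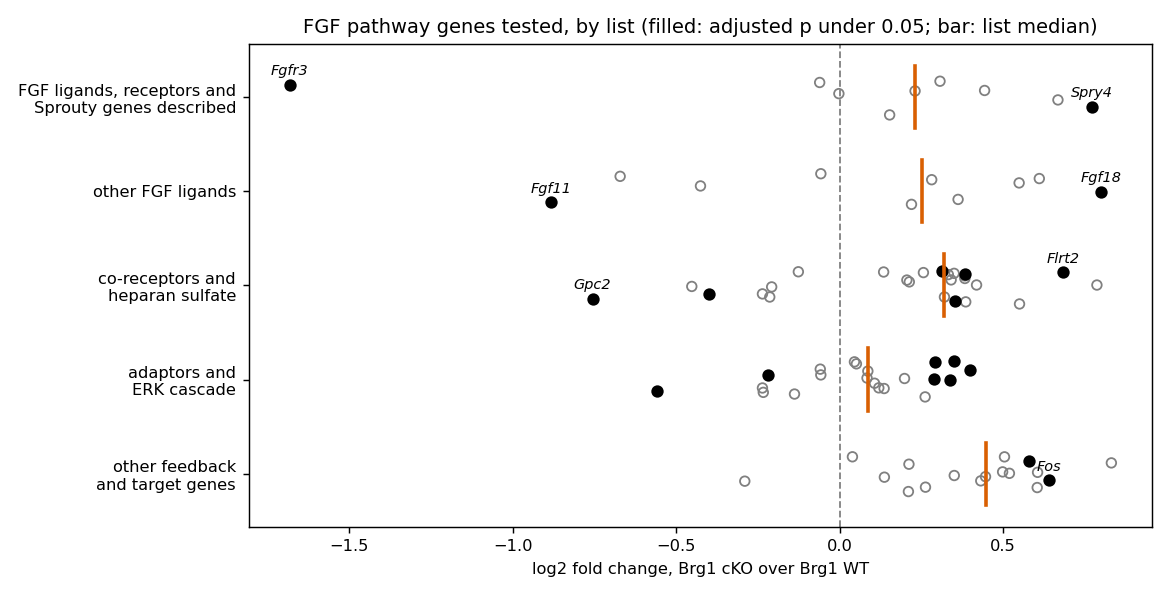
Log2 fold change of Brg1 cKO over Brg1 WT (horizontal axis) for the tested genes of the 10 described and of the 4 further FGF pathway lists, filled where the adjusted p was under 0.05, with the median of each list as a vertical bar. Fgfr3 at -1.68 lies farthest from 0, and the medians lie between 0.09 and 0.45.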

How the data were processed

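The authors deposited estimated counts per gene symbol for 8 libraries. Per the submitters' processing notes, kallisto 0.42.5 was used, and edgeR and the build mm9 are listed too. A stranded library kit was used, per the labels' protocols. The sources used here do not state the annotation, how transcripts were summed or whether strand was used. kallisto divides reads that fit several transcripts, and of the 10 genes Fgfr4 and Spry4 alone had whole counts in every library (within 1e-06).

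Counts were rounded, filtered with filterByExpr (16059 of 28460 genes left), scaled with TMM and compared in edgeR 4.0.16 under R 4.3.3 (quasi-likelihood, robust, genotype the only term), with Benjamini-Hochberg adjustment over all tested genes and a threshold of 0.05. Standard errors are the absolute log2 fold change over the square root of F, and 95% intervals use 6 residual degrees of freedom. CPM are on TMM-scaled totals. Per-kb levels use GENCODE M21 transcript lengths, and promoter windows come from RefSeq (GRCm38.p6). The test was checked on simulated counts with 200 changed genes. No libraries of a genotype agreed within sampling noise (lowest chi-square per degree of freedom 21.6). If replicates share animals, p-values measure only the spread between these samples. Counting error limits low genes, and the stated floors cover that error only.

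Alternatives were DESeq2 1.42.0, limma-voom (limma 3.58.1), RLE and upper-quartile factors, other filters, unrounded counts, leaving out libraries, the replicate number as a block, and marker list medians as no change. The 10 genes, the lists and the alternatives were chosen with earlier results of these data known. Named are the 10 genes, up to 4 called genes per pathway list by adjusted p, tested ligands, and the 2 genes of average log2 CPM of at least 3 nearest in pattern to each gene. The ratios to marker lists, the list of pachytene and spermatid transcripts and the naming of the remaining called pathway genes were added after the values were seen.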

Additional observations from a re-analysis of the deposited data

Results flagged for a closer look

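In 3 of 70 groups of 4 libraries looked at, over 35 genes, a single library stood far from the other 3, where chance gives about 1 in 20 groups. Fgf13 had 36.6 CPM in Brg1 cKO replicate 4, against 23.8 to 25.9 CPM in the other Brg1 cKO libraries. Sos2 had 101 CPM in Brg1 cKO replicate 2, where the other Brg1 cKO libraries had 121 to 122 CPM. Ext1 had 27.0 CPM in Brg1 WT replicate 1, where the other Brg1 WT libraries had 36.6 to 38.2 CPM.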

How the results depend on the processing

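Fgfr3 kept its direction and its call under all 19 alternatives, and 139 of 169 values of the 9 tested genes kept direction and side of the threshold. The number of the 9 genes called was 2, and 1 to 3 when each library was left out in turn (1 without Brg1 cKO replicate 1, 2 or 3, and 3 without Brg1 cKO replicate 4). It was 1 without Brg1 WT replicates 1 and 2 together, 1 with the replicate block, 1 relative to the Sertoli cell median and 5 relative to the pan-germ cell median (Fgf2, Fgfr1, Fgfr2 and Spry4 higher, Fgfr3 lower). Genes called over the whole table were 1608 to 3477 with a library left out, the lowest being 1608 and 1881 without Brg1 cKO replicates 1 and 3 and 2037, 1777 and 2135 without Brg1 WT replicates 1, 2 and 3, 438 without Brg1 WT replicates 1 and 2, 1914 with the replicate block, 8585 relative to the Sertoli cell median and 9407 relative to the pan-germ cell median. Of the further pathway genes, called 17 in all, 11 (without Brg1 cKO replicate 1) to 19 were called with a library left out, 2 without Brg1 WT replicates 1 and 2, 32 with DESeq2, 58 (56 higher, 2 lower) with pan-germ cell markers as no change, and 25 (0 higher, 25 lower) relative to the Sertoli cell median. Fits without a library also had fewer samples, while the other settings kept all libraries, and the cause of these shifts was not tested.

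Pairing by replicate number was not seen, though 4 libraries per genotype cannot exclude it. Deviations of same-numbered libraries had correlations of -0.367 to 0.152, 2 of 4 pairs were over 0.1, and 3 of 8 libraries were closest to their own number. With the replicate block Spry4 had a log2 fold change of 0.80 (adjusted p = 0.0595).

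Signs turned for values near 0. Fgf8 was 0.0080 with RLE factors, 0.0082 with DESeq2, 0.22 without Brg1 WT replicates 1 and 2 and 0.37 with pan-germ cell markers as no change, and -0.17 to 0.15 with a library left out. Fgfr4 was 0.12 without Brg1 WT replicates 1 and 2 and 0.31 with pan-germ cell markers as no change, and -0.29 to 0.16 with a library left out. Fgf9 was -0.061 without Brg1 WT replicates 1 and 2, and -0.35 to 0.36 with a library left out. Fgf14 was 0.32 with pan-germ cell markers as no change, and -0.22 to 0.20 with a library left out. Relative to the Sertoli cell median, Fgf9 was -0.23, Fgfr2 -0.0734, Spry2 -0.15, Fgf13 -0.10, Fgf10 -0.0144, Fgf17 -0.16, Ndst1 -0.0268, Hs6st1 -0.0678, Ptpn11 -0.0882, Sos1 -0.0433, Sos2 -0.0296 and Araf -0.093. Map2k2 was 0.16 relative to the pan-germ cell median. Depth limits Fgf2, Fgf5, Fgf8 and Fgfr4, with at most 40 counts in a library.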
